A study of Mus musculus with 12 samples.

Results

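The sorted mouse bone populations labelled SSC and CSP were compared across 12516 genes, using 4 arrays of each out of the 12 arrays of the series. The other 4 arrays hold a population labelled Thy, and they entered the fit to add to the estimate of the spread. Each of SSC and CSP has 2 arrays with JUN and 2 without, and the difference was adjusted for induction. All samples came from JUN inducible mice, and JUN was induced in young mice for 2 days by doxycycline in the drinking water of the mother. Samples with -JUN in their label were taken to be those without induction. The cells were sorted by flow cytometry from limb bones, skull cap, scapula, vertebrae and ribs. The design text of the series writes BCSP where the sample labels write CSP. The sources used here do not give the antibodies and gates of the sort, the ages and sexes of the mice or the promoter that drives JUN. The titles name mice 3, 4 and 7 for both an SSC and a CSP array, taken here as the same animals, mouse 10 for SSC without JUN replicate 3 and mouse 3b for CSP without JUN replicate 2.

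In the skeletal stem cell scheme of mouse bone, stem cells at the top of the hierarchy give rise to progenitors of bone, cartilage and stroma, and surface proteins separate these stages. CD105, the product of Eng, is among those proteins, being absent from the stem cell gate and present on the progenitor gate downstream of it. Bone is innervated, and its nerves carry Schwann cells, neural crest derived glia that either wrap axons in compact myelin or ensheathe thin axons without it. Their identity rests on the transcription factor SOX10 and on neuregulin signals through ERBB3, and myelination adds a set of membrane proteins and lipid enzymes.

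Of the 12516 genes, 54 differed between SSC and CSP at an adjusted p under 0.05 in limma, which is 0.431% of the genes tested. SSC had the higher level for 48 of them (0.384%) and the lower level for 6 (0.0479%). Of the 12 largest differences, all higher in SSC, 6 were of genes on the lists of Schwann cell and myelin genes or of Schwann lineage regulators (Mbp, Gjc3, Ednrb, Mal, Dhh and Mag). The other 6 were Pmp2, Reln, Sox2, Gpm6a, Bcas1 and Kcna1. Of the 6 genes lower in SSC, Mmrn2 and Eng were on the endothelial list. A log2 difference of 1 is a doubling of the signal. Across all genes tested the median difference was -0.05 and 42.2% of genes were higher in SSC, so the genes past the threshold lean towards SSC while the bulk of the genes does not. At an unadjusted p under 0.05 stood 815 genes. For each of the 54 the 4 arrays of one population lay wholly above those of the other, a pattern that 275 genes (2.20%) showed with SSC above and 233 (1.86%) with SSC below.

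**Figure D1:**
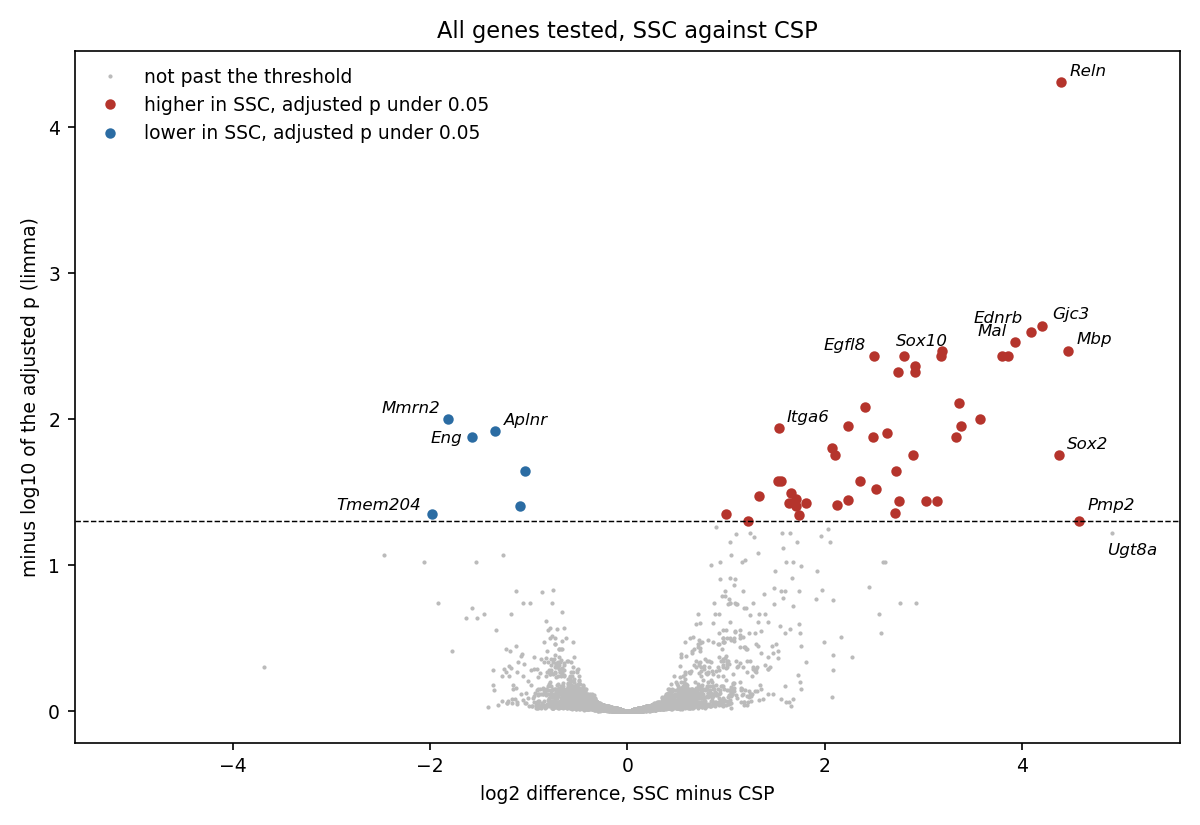
Each point is a gene, with the log2 difference of SSC minus CSP on the x axis and minus log10 of the limma adjusted p on the y axis; the dashed line is the threshold of 0.05. The 48 genes higher in SSC spread to the right up to 4.58, the 6 lower ones reach -1.98, and Reln stands alone at the top.

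The count of 54 depended on how the mice and single arrays entered the fit. The mouse was entered as a fixed block in a fit that kept the Thy arrays. Mouse 3b, with a CSP and a Thy array, thus fed into the comparison beside mice 3, 4 and 7. SSC noJUN replicate 3, the only array of its mouse, did not. With this block 8 genes passed (0.0639%), and all 8 were among the 54. They were Reln, Mbp, Gjc3, Ednrb, Mal, Gpm6a, Dhh and Dusp4. Leaving out 1 SSC array gave 17 genes (noJUN replicate 3), 25 (JUN replicate 2), 46 (JUN replicate 1) or 50 (noJUN replicate 1). Leaving out 1 CSP array gave 21 genes (noJUN replicate 2), 25 (noJUN replicate 1), 30 (JUN replicate 1) or 35 (JUN replicate 2). Without all arrays of mouse 7 the count was 7 and without mouse 3 it was 34, while without mouse 4 it stayed within 1.5 times of 54.

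Array measures of RNA quality differed in part between the populations. The mean log2 difference between 3′ and 5′ control probe sets of Gapdh and beta-actin, a measure of RNA degradation, was 0.296 to 0.402 in SSC and 0.345 to 0.531 in CSP. With this measure as a covariate 2 of the 54 genes passed, Reln and Ednrb. Adjusted p rose for genes whose differences stayed close to those without the covariate, such as Mbp at 4.34 (adjusted p = 0.0620), Gjc3 at 4.23 (0.0537) and Gpm6a at 3.87 (0.0620). Mal stood at 3.30 (0.0620) and Pmp2 at 3.97 (0.419). Spiked poly-A controls read 8.47 to 11.24 in SSC and 9.95 to 11.77 in CSP. Dated titles belong to 3 of the 4 SSC arrays and to 0 CSP arrays. With a term for them the SSC level is read from the only undated SSC array, SSC JUN replicate 1. The count of genes from that fit is therefore not given. Within a population the arrays correlated about as between them, with medians over pairs of 0.960 for SSC, 0.960 for CSP and 0.954 for SSC with CSP. Xist read 12.49 to 13.20 in the arrays of mouse 3 and 6.11 to 7.29 in the other arrays.

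The labelled cell types were checked against defining genes. Pdgfra, a receptor of mesenchymal progenitors, read 11.87 to 12.90 in SSC and 12.46 to 13.51 in CSP, and the cartilage genes Col2a1, Acan, Col9a1 and Sox9 and the bone genes Alpl and Ibsp lay above the median of the array on all 4 SSC and all 4 CSP arrays. The cartilage gene Matn3 did so on 3 SSC and 4 CSP arrays, and Sp7, a transcription factor of osteoblasts, on 2 SSC and 2 CSP arrays. The erythroid genes Alas2, Klf1 and Slc4a1 lay above the array median on 0 of the 12 arrays. Of the leukocyte genes, Ptprc did so on 0 arrays, Cd53 on 2 (1 SSC, 0 CSP), Laptm5 on 3 (0 SSC, 2 CSP) and Coro1a on 3 (0 SSC, 0 CSP). Some genes of other cell types were not dim. The pericyte genes Rgs5, Kcnj8, Abcc9, Cspg4 and Notch3 lay above the array median on all 12 arrays. Of the skeletal muscle genes, Ckm and Acta1 did so on 12 arrays, Myod1 on 10 and Pax7 on 0. The Schwann cell genes Mbp and Sox10 did so on 4 SSC and 3 CSP arrays, and Mag on 4 and 0. Jun itself read 12.60 and 12.06 in SSC without JUN, 13.18 and 12.13 in SSC with JUN, 13.37 and 13.24 in CSP without JUN and 12.92 and 12.82 in CSP with JUN. The arms overlapped in SSC, and in CSP both arrays with JUN lay below both without it. The sources used here do not say if these probe sets detect RNA of the transgene, so Jun does not check the labels of the arms.

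Reln, which encodes the secreted glycoprotein reelin that guides migrating neurons, had the smallest p of all genes. Its log2 value was 10.70 and 11.64 in SSC without JUN, 11.83 and 11.30 in SSC with JUN, 6.84 and 7.07 in CSP without JUN and 7.31 and 6.65 in CSP with JUN. The lowest SSC array stood far above the highest CSP array. The difference was 4.40 ± 0.30 (SE), a 21.1-fold higher level in SSC, at an adjusted p of 4.91e-05 in limma and 0.00487 with the mouse as a block. It was the only one of the genes named here to pass in all 33 alternative settings run, with differences of 4.04 to 4.95 and an adjusted p of at most 0.0118. In Thy, Reln read 11.63, 11.09, 10.52 and 11.01, so that 3 of the 4 Thy arrays lay within the range of SSC.

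Among the genes of compact myelin and its membrane, Mbp encodes myelin basic protein, which holds the cytoplasmic faces of the sheath together. It read 12.48, 13.01, 11.81 and 12.43 in the SSC arrays and 7.95, 8.20, 7.29 and 8.41 in the CSP arrays, with the arrays without JUN given first here and below. The difference was 4.47 ± 0.52 (adjusted p = 0.00339 in limma, 0.0414 with the mouse as a block). All 5 further probe sets of Mbp also read higher in SSC, by 1.85 to 4.91.

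Mal encodes a proteolipid of myelin membranes. It read 11.90, 12.80, 11.29 and 12.09 in SSC and 7.67, 8.09, 7.62 and 8.96 in CSP, a difference of 3.93 ± 0.43 (adjusted p = 0.00297 in limma). Mag, an adhesion protein of the membrane facing the axon, read 9.40, 10.17, 9.07 and 9.42 in SSC and 5.80, 5.55, 5.91 and 6.49 in CSP, a difference of 3.58 ± 0.51 (adjusted p = 0.00995). For Mal and Mag no array of either population came near the other. Bcas1, a gene of myelinating glia, read 10.54, 11.79, 10.59 and 10.71 in SSC and 6.85, 7.20, 7.52 and 8.53 in CSP, a difference of 3.38 ± 0.50 (adjusted p = 0.0112). A further Bcas1 probe set differed by only 0.06.

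Pmp2, a fatty acid carrier of peripheral myelin, had the largest difference of the genes that passed and the widest spread. It read 10.31, 11.83, 8.03 and 10.80 in SSC and 5.22, 5.41, 5.80 and 6.24 in CSP. The low SSC array was that of mouse 4, SSC JUN replicate 1, and the difference of 4.58 ± 0.88 passed only just (adjusted p = 0.0496 in limma, 0.122 with the mouse as a block). Ugt8a, the enzyme that makes the myelin lipid galactosylceramide, is named here after its values were seen, because it had the same pattern. It read 9.81, 11.91, 6.91 and 10.50 in SSC and 5.23, 3.96, 5.68 and 4.62 in CSP, and its difference of 4.91 ± 0.98 did not pass (adjusted p = 0.0596).

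Other myelin genes past the threshold were Cnp, a nucleotide phosphodiesterase of myelinating cells, at 2.41 ± 0.33 (adjusted p = 0.00825), and Pllp, a membrane proteolipid, at 2.63 ± 0.40 (adjusted p = 0.0124). Aspa, which cleaves the brain metabolite N-acetylaspartate, differed by 3.33 ± 0.51 (adjusted p = 0.0132). Of the 13 tested genes on a list of Schwann cell and myelin genes, all 13 were higher in SSC and 7 passed, with a median difference of 2.63, against 48 of 12516 and a median of -0.05 over all genes. The median of this list was 2.29 with the mouse as a block and lay between 2.05 and 2.99 over the alternative settings. The mean of the 13 genes was 10.43 to 11.14 in the SSC arrays, 7.95 to 8.33 in the CSP arrays and 9.26 to 11.00 in the Thy arrays. The list has 16 genes on the array. A gene was kept if 2 arrays lay above their median, so genes dim in CSP could enter through SSC or Thy arrays. Medians of the CSP arrays were 7.66 to 7.73. All CSP values of Mag, Ugt8a, Pmp2, Gpm6a, Sox2 and Reln lay below them, so these large differences rest on dim CSP signals. All CSP values of Aspa, Kcnj10, Gatm, Igsf11, Nipal1, Plxnb3, Sema3g, Dusp4, Tnik, Arhgap19, Fxyd3, Grik2, Rhpn2 and Slc35g1 also lay below these medians. In bulk samples like these, fewer cells of a type and less RNA per cell cannot be told apart.

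**Figure D2:**
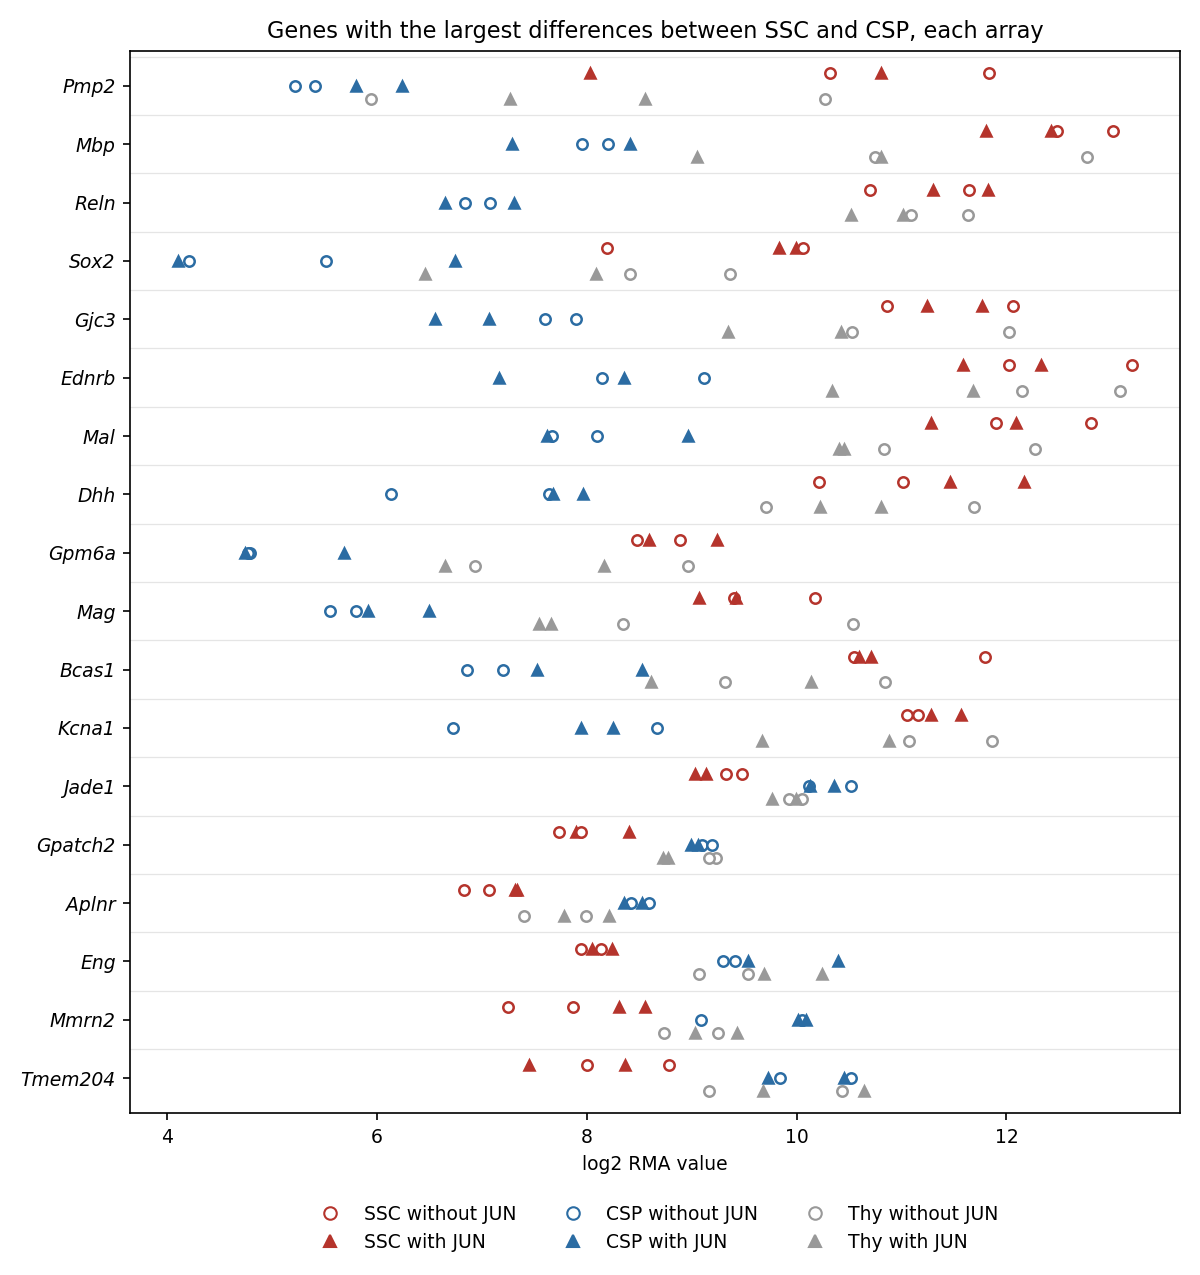
Log2 RMA values of 18 genes past the threshold, the 12 with the largest differences among those higher in SSC and the 6 lower in SSC, 1 symbol per array; circles are arrays without JUN, triangles arrays with JUN, and colours give the population. SSC and CSP arrays do not overlap for these 18 genes, which the choice required, and in the 12 genes higher in SSC most Thy arrays lie between the highest CSP array and the highest SSC array.

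Of 21 tested regulators of the Schwann lineage, 6 passed, all of them higher in SSC. Sox10 encodes the transcription factor that specifies peripheral glia. It read 9.70, 10.23, 11.49 and 10.73 in SSC and 7.90, 6.66, 8.30 and 8.07 in CSP, a difference of 2.80 ± 0.35 (adjusted p = 0.00368 in limma, 0.0608 with the mouse as a block). Erbb3, the neuregulin receptor of Schwann cells, read 10.72, 11.58, 12.34 and 11.18 in SSC and 8.61, 8.30, 8.65 and 8.62 in CSP, a difference of 2.91 ± 0.38 (adjusted p = 0.0047). For these regulators the highest SSC value was that of mouse 4, the array in which Pmp2 and Ugt8a were lowest. The same array was highest for Cadm4, an adhesion protein between Schwann cell and axon, which differed by 2.90 ± 0.46 (adjusted p = 0.0176).

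Sox2, a transcription factor of neural stem cells and immature Schwann cells, read 8.19, 10.06, 9.83 and 9.99 in SSC and 5.52, 4.21, 4.10 and 6.74 in CSP. The difference was 4.38 ± 0.70 (adjusted p = 0.0176 in limma, 0.0957 with the mouse as a block). Sox2 lies within the gene of a non-coding RNA that was also among the 54, so signals of the overlapping genes may not be fully separate. Dusp4, a phosphatase that switches off ERK kinases, differed by 2.24 ± 0.40 (adjusted p = 0.0358) and kept its call with the mouse as a block (0.0442).

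Ednrb encodes the endothelin receptor B of neural crest derivatives. It read 12.03, 13.20, 11.58 and 12.33 in SSC and 9.11, 8.15, 8.35 and 7.16 in CSP, a difference of 4.09 ± 0.43 (adjusted p = 0.0025 in limma, 0.0416 with the mouse as a block). Dhh, the hedgehog ligand that Schwann cells send to the sheath around the nerve, read 10.21, 11.02, 12.16 and 11.47 in SSC and 7.64, 6.14, 7.67 and 7.96 in CSP. Its difference was 3.86 ± 0.48 (adjusted p = 0.00368), while a further Dhh probe set differed by 0.53. Dhh was the only call among 13 tested genes of the hedgehog pathway, whose median difference was -0.16.

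On this list 18 genes read higher in SSC and 3 lower, with a median difference of 0.85 (0.96 with the mouse as a block). The 6 that passed were Ednrb, Sox10, Erbb3, Cadm4, Plekhb1 at 3.18 ± 0.38 and the small heat shock protein gene Cryab at 1.56 ± 0.26. The other 15 tested genes of the list did not pass. Of 6 tested melanocyte genes, another derivative of the neural crest, the 2 that passed were Ednrb and Sox10, which are on both lists. Of 15 neuronal genes 10 were higher in SSC and 0 passed (median 0.52). Among them Cntn1, an adhesion protein of axons, stood at 1.61 ± 0.35 and the neuronal tubulin gene Tubb3 at 1.39 ± 0.36.

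Among junction, channel and surface proteins, Gjc3 encodes a gap junction protein of glia. It read 10.86, 12.07, 11.24 and 11.76 in SSC and 7.60, 7.90, 7.07 and 6.56 in CSP, a difference of 4.20 ± 0.42 (adjusted p = 0.00228 in limma, 0.0414 with the mouse as a block). Gpm6a, a membrane glycoprotein of neurons, read 8.89, 8.48, 9.24 and 8.59 in SSC and 4.79, 4.77, 4.75 and 5.69 in CSP, a difference of 3.80 ± 0.46 (adjusted p = 0.00368). Kcna1, a voltage-gated potassium channel of axons and glia, read 11.05, 11.16, 11.56 and 11.28 in SSC and 8.67, 6.73, 7.94 and 8.25 in CSP, a difference of 3.37 ± 0.46 (adjusted p = 0.00768). In each of these the spread within SSC was small beside the gap between the populations.

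Kcnj10, the inward rectifier potassium channel of glia, differed by 2.75 ± 0.50 and, with Kcna1, made up the 2 calls among 16 channel and pump genes, of which 12 were higher in SSC (median 0.32). Itga6, the laminin receptor subunit of Schwann cells and many stem cells, differed by 1.53 ± 0.23 (adjusted p = 0.0115) and was the only call among 26 integrin and laminin genes, whose median was -0.01. The semaphorin gene Sema3g stood at 2.24 ± 0.33 and Plxnb3, a semaphorin receptor gene, at 2.50 ± 0.38 (adjusted p = 0.0112 and 0.0132). The kainate receptor subunit gene Grik2 stood at 1.66 ± 0.29 (adjusted p = 0.0317).

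Of the secreted factors, Sostdc1, an antagonist of BMP and Wnt signals, differed by 2.91 ± 0.37 (adjusted p = 0.00428) and was the only call among 37 tested Wnt pathway genes, whose median was -0.08. Egfl8, a secreted protein with EGF-like repeats, differed by 2.50 ± 0.30 (adjusted p = 0.00368), and Sbspon, a secreted matrix protein, by 3.19 ± 0.37 (adjusted p = 0.00339). The remaining genes higher in SSC were Gatm, which catalyses the first step of creatine synthesis, at 3.14 ± 0.57, and Mlip, Art3, Igsf11, Nipal1, Ttyh1, Tnik, Aatk, Arhgap19, Fxyd3, Rhpn2, Emid1, Gpd1, Kank4, Fam181b, Tmprss5, Rasal2 and Slc35g1. Gatm had the largest of their differences and Slc35g1 the smallest.

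Sequence around the start site was read for the genes on which the comparison turns. RefSeq promoters of build GRCm38.p6, 250 bases before to 50 after the annotated start, were found for 34 of the 48 genes higher in SSC and for 3 of the 6 lower in SSC. The first listed start of each gene was used. Shown 5′ to 3′ on the strand of the gene are Reln and Gjc3, which passed with the mouse as a block, Mag as a myelin gene, and Eng as a gene lower in SSC. Capitals mark matches on either strand to the SOX-type motifs ACAAAG and ACAATG or to the EGR-type motif GTGGGNG in Reln, Gjc3 and Mag, and to the ETS-type motif AGGAAG in Eng. Matches to the other motif types are left in lower case.
Reln, chr5:22344656-22344955, minus strand: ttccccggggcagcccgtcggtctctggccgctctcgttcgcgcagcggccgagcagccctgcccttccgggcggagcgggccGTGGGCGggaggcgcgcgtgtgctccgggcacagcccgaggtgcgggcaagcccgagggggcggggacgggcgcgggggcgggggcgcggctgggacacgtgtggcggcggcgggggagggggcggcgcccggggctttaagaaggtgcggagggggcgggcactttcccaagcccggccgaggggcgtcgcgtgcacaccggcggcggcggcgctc
Gjc3, chr5:137963049-137963348, minus strand: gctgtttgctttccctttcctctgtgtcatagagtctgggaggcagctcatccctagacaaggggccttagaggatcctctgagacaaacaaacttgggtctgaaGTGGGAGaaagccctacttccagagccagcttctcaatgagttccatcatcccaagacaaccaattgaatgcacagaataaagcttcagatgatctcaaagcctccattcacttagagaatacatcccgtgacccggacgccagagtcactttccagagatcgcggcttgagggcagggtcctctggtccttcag
Mag, chr7:30914814-30915113, minus strand: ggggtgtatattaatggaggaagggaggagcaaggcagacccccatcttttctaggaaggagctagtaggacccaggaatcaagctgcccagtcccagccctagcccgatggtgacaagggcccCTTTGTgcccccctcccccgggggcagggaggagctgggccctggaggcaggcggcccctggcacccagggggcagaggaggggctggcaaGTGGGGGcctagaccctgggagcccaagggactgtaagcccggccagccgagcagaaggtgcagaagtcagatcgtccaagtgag
Eng, chr2:32646345-32646644, plus strand: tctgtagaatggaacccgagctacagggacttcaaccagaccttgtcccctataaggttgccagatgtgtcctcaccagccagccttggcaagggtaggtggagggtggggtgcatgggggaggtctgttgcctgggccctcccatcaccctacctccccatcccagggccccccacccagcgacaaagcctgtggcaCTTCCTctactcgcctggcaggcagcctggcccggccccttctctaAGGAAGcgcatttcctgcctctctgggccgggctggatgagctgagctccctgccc
Reln and Gjc3 held no SOX-type match and 1 EGR-type match each, starting 167 and 145 bases before the start site. Mag held CTTTGT, a SOX-type match on the opposite strand, 126 bases before the start and an EGR-type match 35 bases before it. Eng held ETS-type matches 52 and 6 bases before the start. The motif types were not particular to a gene shown: Mag also held 2 ETS-type matches, and Eng 1 SOX-type and 1 EGR-type match, whereas Reln and Gjc3 held 0 ETS-type matches. Beside all promoters the shares were as follows. A SOX-type match was found in 9 of the 34 promoters (26.5%), against 19.2% of the promoters of all genes tested and 28.8% of all promoters. An EGR-type match was found in 13 of 34 (38.2%), against 39.1% and 31.3%, and an ETS-type match in 10 of 34 (29.4%), against 32.3% and 35.1%. A match describes the letters only.

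The 6 genes lower in SSC included Eng, the coreceptor of TGF-beta and BMP known as CD105. It read 8.14, 7.95, 8.04 and 8.24 in SSC and 9.30, 9.41, 9.54 and 10.40 in CSP, a difference of -1.57 ± 0.24 (adjusted p = 0.0132 in limma, 0.122 with the mouse as a block). The SSC arrays lay within a narrow band and every CSP array lay above it. If CD105 was used to sort these cells, which the sources used here do not give, the sort chose the cells on this gene's product.

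Mmrn2, a matrix protein of endothelial cells, read 7.87, 7.25, 8.56 and 8.30 in SSC and 9.08, 10.06, 10.01 and 10.09 in CSP, a difference of -1.81 ± 0.26 (adjusted p = 0.00995). A further Mmrn2 probe set differed by 0.05 in the other direction. Aplnr, the apelin receptor of vessels, read 6.83, 7.07, 7.31 and 7.33 in SSC and 8.42, 8.59, 8.53 and 8.35 in CSP, a difference of -1.34 ± 0.20 (adjusted p = 0.012). Its SSC values all lay below the medians of the SSC arrays (7.71 to 7.76), so they are dim signals. Tmem204, a membrane protein of endothelial junctions, read 8.79, 8.01, 8.36 and 7.45 in SSC and 10.52, 9.84, 9.73 and 10.45 in CSP, a difference of -1.98 ± 0.37 (adjusted p = 0.0446). CSP stood above SSC on every array for these vessel genes.

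Jade1, a subunit of a histone acetyltransferase complex, read 9.48, 9.32, 9.13 and 9.03 in SSC and 10.52, 10.12, 10.13 and 10.36 in CSP, a difference of -1.04 ± 0.17 (adjusted p = 0.0226). Gpatch2 read 7.74, 7.94, 8.40 and 7.90 in SSC and 9.09, 9.19, 9.06 and 8.99 in CSP, a difference of -1.09 ± 0.20 (adjusted p = 0.0392). Further probe sets of these genes differed by less, from -0.41 to -0.11. None of the 6 genes lower in SSC passed with the mouse as a block, at adjusted p from 0.0958 to 0.301.

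Of 13 tested endothelial genes, 11 were lower in SSC and 2 passed, Mmrn2 and Eng, with a median of -1.16 (-1.20 with the mouse as a block, -1.36 to -0.64 over the alternatives). Members that did not pass were Cldn5, the tight junction claudin of vessels, at -2.46 ± 0.52, the adhesion protein gene Pecam1 at -1.52 ± 0.40 and the receptor gene Tie1 at -1.45 ± 0.38. The mean of the list was 8.01 to 8.42 in SSC, 9.01 to 9.56 in CSP and 8.72 to 9.34 in Thy. Of the defining endothelial genes, Pecam1 lay above the array median on 0 SSC and 3 CSP arrays, Tie1 on 0 and 1, Emcn on 0 and 1, Kdr on 2 and 3, and Cdh5 and Tek on 4 and 4. The part of endothelial cells in the differences of Eng, Mmrn2, Aplnr and Tmem204 was not tested.

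The difference was next read within each mouse that gave both populations, taking the same mouse number in the titles as the same animal. For mice 3 and 7 the SSC title is dated and the CSP title is not, and for mouse 4 neither is. All 48 genes higher in SSC were higher in mouse 3, in mouse 4 and in mouse 7, and the 6 lower genes were lower in each. Over all genes 11.1% were higher in SSC in each of the 3 mice and 10.8% were lower in each. The members were chosen on the same arrays, so their signs are a description. The median difference of the 48 was 1.93 in mouse 3, 2.75 in mouse 4 and 2.52 in mouse 7. Mbp and Reln differed by similar amounts in every mouse, at 4.53, 4.52 and 4.02 and at 3.86, 4.52 and 4.66. Pmp2 differed by 5.10 in mouse 3, 2.23 in mouse 4 and 4.57 in mouse 7, whereas Sox2 was widest in mouse 4, at 5.73 against 2.67 and 3.25.

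**Figure D3:**
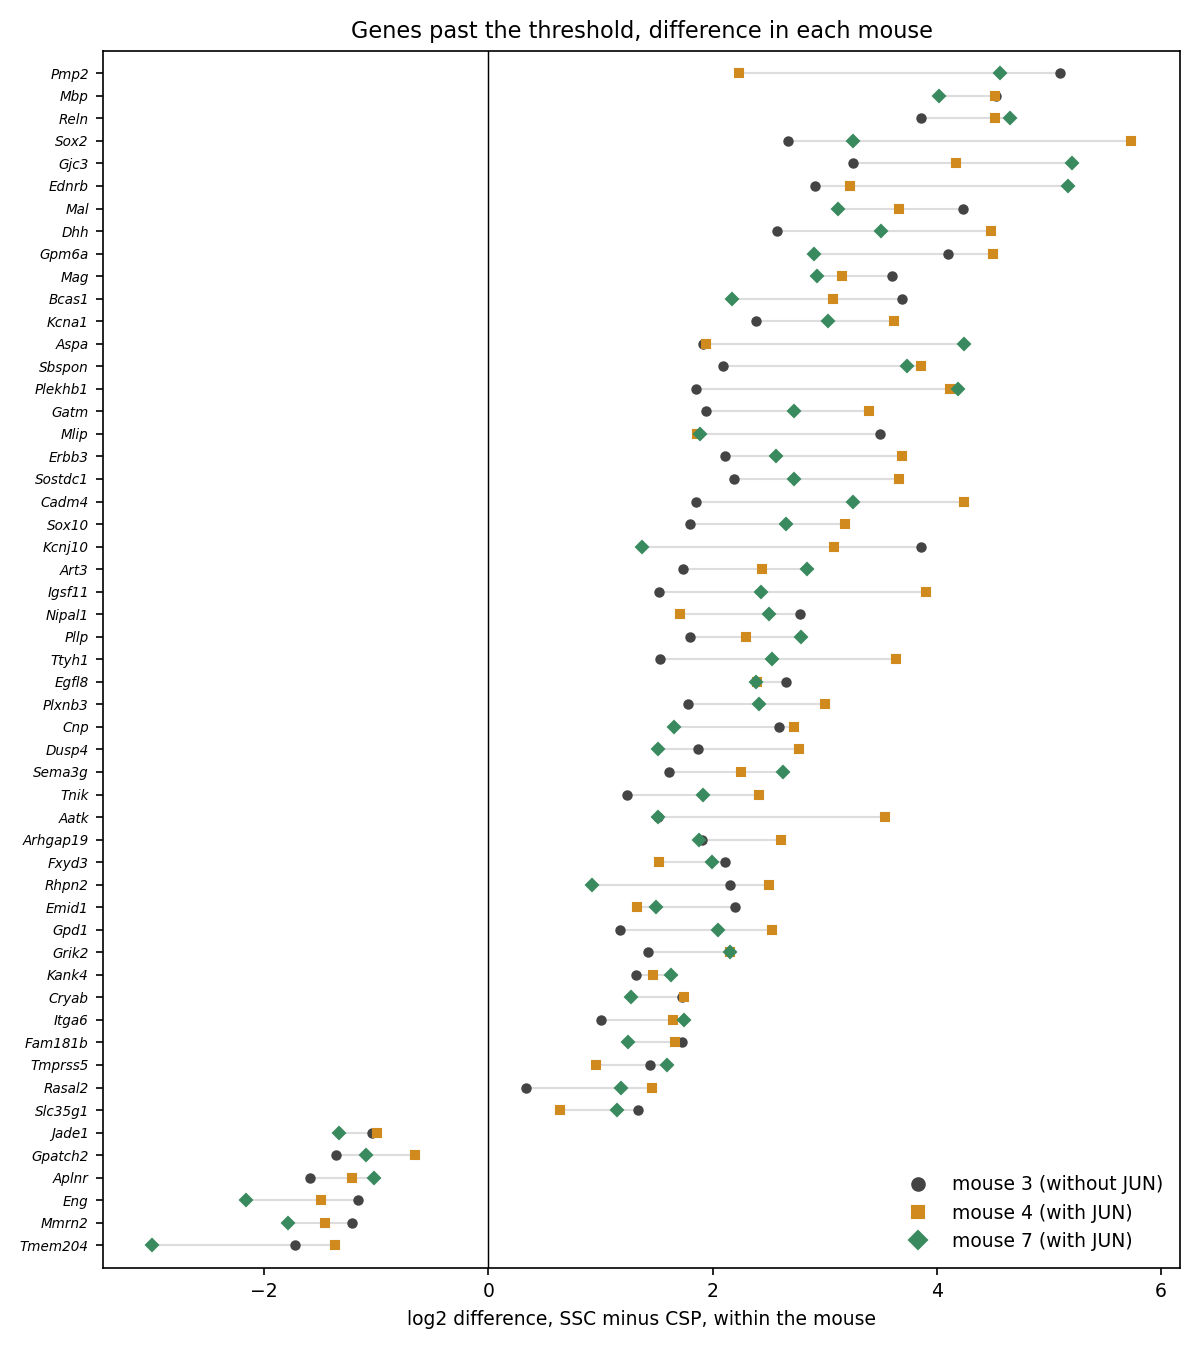
Log2 difference of SSC minus CSP within mouse 3, mouse 4 and mouse 7 on the x axis, for the 53 protein-coding genes past the threshold, ordered by their fitted difference. All points of the genes higher in SSC lie right of 0 and all points of the 6 lower genes lie left of it, and Pmp2 and Sox2 spread most widely between mice.

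Separated by induction, SSC and CSP differed in 1 gene without JUN (0.00799%), which was Reln, and in 8 genes with JUN (0.0639%). Each contrast set 2 arrays against 2. The 8 genes were Reln, Gjc3, Sbspon, Plekhb1, Erbb3, Cadm4, Ttyh1 and Gpd1, all higher in SSC. All 12 arrays entered this fit of group means, so both arms and Thy shared the estimate of the spread. The median difference of the 48 genes was 2.60 without JUN and 2.63 with JUN. The arms hold different arrays and different mice, and across the 12516 genes, which are not independent replicates, their differences correlated with a Pearson r of 0.373.

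Whether JUN changed the difference between SSC and CSP was tested as an interaction. In limma 0 genes passed (0.00%), the lowest adjusted p was 0.999, and 134 genes had an unadjusted p under 0.05. The 6 genes of lowest p were Ctnnd2, Popdc3, Spdl1, Arhgef4, Grm3 and Btbd18. Ctnnd2, which encodes the neuronal delta-catenin, read 6.28 and 5.88 in SSC without JUN, 9.61 and 7.63 with JUN, 7.12 and 6.43 in CSP without JUN and 5.77 and 6.10 with JUN, an interaction of 3.38 ± 0.85. Popdc3, a membrane protein of muscle, read 7.67, 6.58, 6.62 and 6.72 in SSC and 5.58, 6.05, 7.63 and 9.04 in CSP, an interaction of -2.97 ± 0.78. Grm3, a glutamate receptor gene, had an interaction of 2.61 ± 0.70 and was highest in the SSC array of mouse 4 at 9.72. Of the 54 genes, Plekhb1, Mlip, Gpd1 and Cadm4 had an unadjusted interaction p under 0.05.

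Among genes of the skeletal lineages 0 passed. Of 25 tested cartilage matrix genes 24 were lower in SSC and 0 passed, with a median of -0.55 that turned to 0.15 with the mouse as a block and ran from -1.67 to 1.68 over the alternatives. The mean of the list was 13.09 in SSC JUN replicate 1, 12.97 in CSP JUN replicate 1 and 12.94 in CSP noJUN replicate 2, against 9.70 to 10.68 in the other 5 arrays. Both arrays of mouse 4 and the CSP array of mouse 3b were thus the high ones, whatever the population. Matn1, a cartilage matrix protein gene, read 12.82, 13.33 and 13.07 in those arrays and 7.51 to 8.95 in the others.

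Of 14 osteoblast and osteocyte genes 9 were higher in SSC and 0 passed (median 0.27, 0.53 with the mouse as a block). Dmp1, a mineralization protein of osteocytes, read 9.96, 10.70, 12.03 and 10.61 in SSC and 6.16, 9.84, 9.67 and 7.35 in CSP. The populations did not overlap for Dmp1, but the difference of 2.58 ± 0.72 did not pass (adjusted p = 0.291). Ibsp, bone sialoprotein, stood at 1.75 ± 0.65 (adjusted p = 0.627). Its value was 12.44 to 12.98 in SSC and 8.87 to 12.48 in CSP, low in the CSP arrays of mice 3 and 7. Among fat and stromal genes, Adipoq stood at 1.76 ± 0.39 and the leptin receptor gene Lepr at 1.03 ± 0.25, and 0 of 13 passed (median 0.00).

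Of 13 tested smooth muscle genes 12 were higher in SSC and 0 passed, with a median of 0.66 (0.72 with the mouse as a block, 0.54 to 1.04 over the alternatives). Acta2, smooth muscle actin, read 12.95, 12.44, 13.06 and 13.17 in SSC and 11.96, 11.55, 11.73 and 11.98 in CSP, which did not overlap (1.10 ± 0.22, adjusted p = 0.0613). Myh11, smooth muscle myosin, stood at 2.08 ± 0.51 and Tagln, an actin-binding protein gene, at 1.08 ± 0.25.

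**Figure D4:**
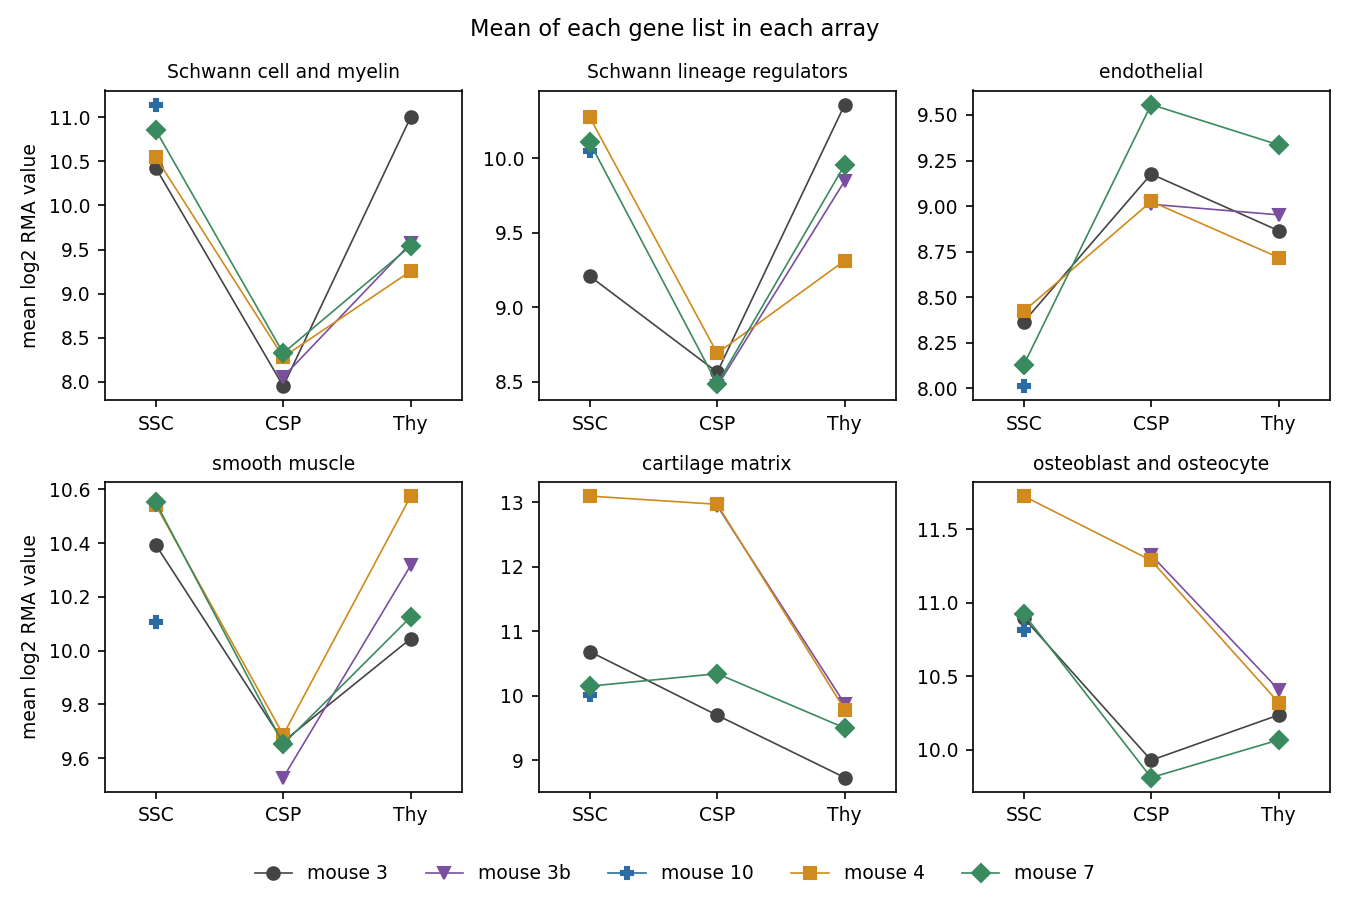
Mean log2 RMA value of the tested genes of 6 lists in each array, by population on the x axis, with arrays of 1 mouse joined by a line. The Schwann, endothelial and smooth muscle lists separate SSC from CSP on every array, whereas the cartilage list is high in both arrays of mouse 4 and in the CSP array of mouse 3b.

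The surface proteins used in skeletal stem cell sorts were compared as a list of 13 tested genes, of which 6 were higher in SSC and Eng alone passed (median -0.01). Thy1 read 8.31, 7.28, 8.62 and 8.90 in SSC and 8.04, 8.11, 8.09 and 9.63 in CSP, against 12.80 to 13.30 in the Thy arrays. SSC and CSP thus overlapped at a low level of Thy1, with the difference of -0.19 ± 0.34 changing sign under 6 alternatives. Cd200 stood at 0.42 ± 0.46, the integrin gene Itgav at 0.24 ± 0.27, Enpep, which encodes the 6C3 antigen, at 0.41 ± 0.32 and Tek at 0.78 ± 0.51, and each changed sign under some alternatives. Alcam at 1.49 ± 0.37, Mcam at 1.04 ± 0.30 and Vcam1 at -0.55 ± 0.16 did not pass either.

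In growth and stress genes, 16 of 17 S phase genes were lower in SSC and 0 passed (median -0.37, -0.48 to -0.24 over the alternatives). Mcm6, a subunit of the replicative helicase, read 11.22, 11.17, 11.00 and 10.88 in SSC and 12.01, 11.69, 11.78 and 11.42 in CSP, which did not overlap (-0.66 ± 0.17, adjusted p = 0.208). Of 20 AP-1 family genes, to which Jun belongs, 16 were lower in SSC and 0 passed, with a median of -0.22 (-0.06 with the mouse as a block). Jun stood at -0.59 ± 0.28, and at 0.25 with a term for dated titles, which reads SSC from SSC JUN replicate 1 alone. Of 29 respiratory chain genes 25 were higher in SSC and 0 passed, with a median of 0.16 (-0.02 to 0.24 over the alternatives). That median was 0.24 without JUN and 0.03 with JUN. Of 5 neutrophil genes all 5 were lower in SSC and 0 passed, S100a9 at -0.99 ± 0.25 among them.

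**Figure D5:**
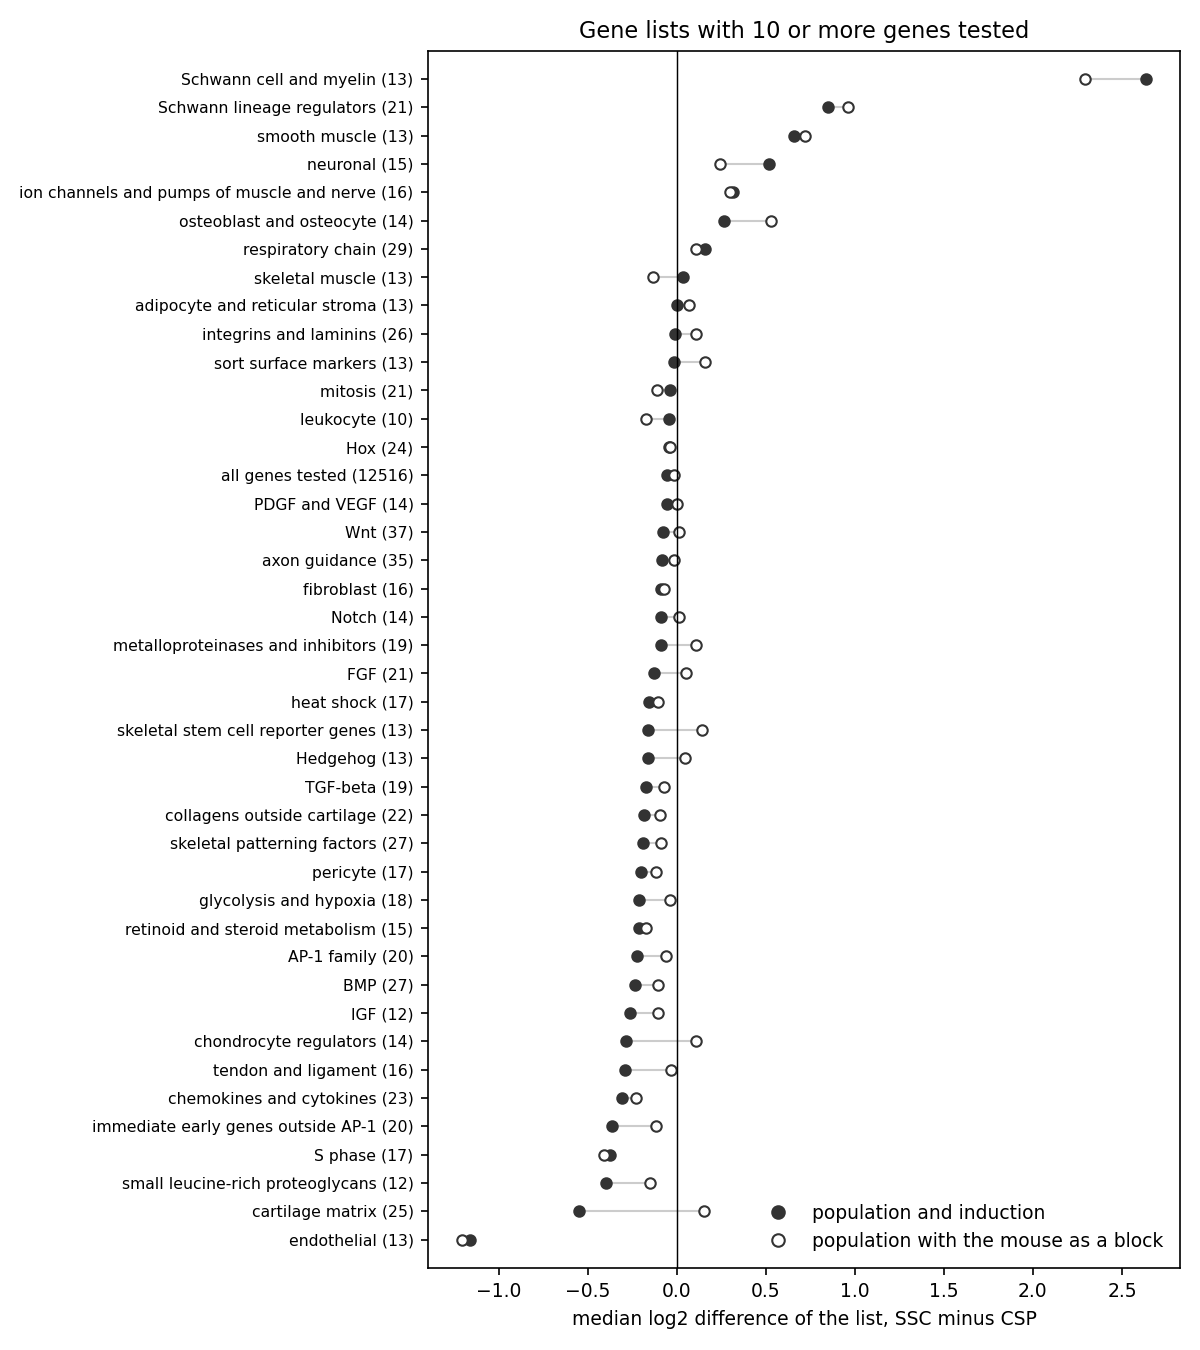
Median log2 difference of SSC minus CSP for the lists with 10 or more genes tested (numbers of genes in brackets), fitted with population and induction (filled) and with the mouse as a block (open). The Schwann cell and myelin list lies farthest right at 2.63 and the endothelial list farthest left at -1.16, and the cartilage list changes side between the fits.

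Several other groups of genes held members whose arrays did not overlap but that missed the threshold. Of 16 tendon and ligament genes 13 were lower in SSC and 0 passed (median -0.29, -0.03 with the mouse as a block). Tnmd, the tendon membrane protein tenomodulin, read 12.83 to 13.33 in SSC and 13.44 to 13.81 in CSP (-0.64 ± 0.18, adjusted p = 0.269 in limma). Of 27 BMP pathway genes 20 were lower in SSC and 0 passed (median -0.23), with the ligand gene Bmp5 at 10.20 to 10.60 in SSC and 10.77 to 11.36 in CSP.

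On the side of SSC stood Sfrp5, a secreted Wnt antagonist, at 8.84 to 9.76 in SSC and 7.28 to 7.61 in CSP (1.68 ± 0.36, adjusted p = 0.0951). Sema3b, a secreted axon guidance cue, read 10.62 to 12.13 in SSC and 9.00 to 10.41 in CSP (1.58 ± 0.33, adjusted p = 0.0760). Of 35 axon guidance genes 16 were higher in SSC and 0 passed, with a median of -0.08. Itga7, a laminin receptor subunit of muscle, read 8.83 to 10.68 in SSC and 7.72 to 8.22 in CSP (1.56 ± 0.37, adjusted p = 0.15). Of 17 pericyte genes 12 were lower in SSC and 0 passed, with a median of -0.20.

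The Thy population shares the spread of the fit and is given beside the others for levels. Means of Thy were 10.84 for Mbp, 10.58 for Gjc3, 11.81 for Ednrb, 10.79 for Sox10 and 11.37 for Erbb3, against 12.43, 11.48, 12.28, 10.54 and 11.46 in SSC and 7.96, 7.28, 8.19, 7.73 and 8.54 in CSP. CSP was the population with the low level of these glial genes. For Eng the mean of Thy was 9.63, beside 8.09 in SSC and 9.66 in CSP, so that here SSC was the low one.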

How the data were processed

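Expression was measured with 1 array per sample. The values are log2 values per probe set that the authors made with RMA, per the submitters' processing notes; the sources used here do not name the software. RMA gives all arrays a common distribution, which hides a change of total RNA. Of 45101 probe sets 64 controls were left out, 34945 had 1 symbol, and those above the array median in at least 2 arrays were kept. The probe set of highest mean stood for a gene, which left 12516 of 18193 genes. Differences were fitted with limma 3.58.1 in R 4.3.3 (population and induction, 12 arrays, 8 residual degrees of freedom, Benjamini-Hochberg adjustment, two-sided), as SSC minus CSP with standard errors. Titles give mouse numbers, and arrays with the same number were taken to pair by animal. The block of mouse was an alternative with 5 residual degrees of freedom. Deviations of the paired arrays from the means of their groups of 2 correlated at 0.0072 in mouse 3 and -0.027 in mice 4 and 7. The JUN groups of SSC and CSP hold only mice 4 and 7, so their value is 1 number by construction. For mouse 3 the deviations also depend on the arrays of mice 10 and 3b, so these values cannot test the pairing. Nothing says that every array is a separate animal, and p-values measure the spread between these arrays, whose number limits the precision. The fits were also run on simulated data with independent noise and no mouse effect, so that run cannot check how the mice were treated.

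All protein-coding genes past the threshold may be named, with values by array for up to 12 per direction, up to 5 genes of lowest p per list, the sort markers and 6 interaction genes. The members and the 47 lists were chosen with earlier results of these data known, so no list is independent support. Alternatives changed the block, arrays, filter, probe set choice, scaling, weights and covariates.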

Additional observations from a re-analysis of the deposited data

Results flagged for a closer look

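Of 130 groups of 4 arrays examined, 9 had an array that stood far from the other 3; chance flags about 1 group in 20. Sox2 was low in SSC noJUN replicate 1, at 8.19 against 9.83 to 10.06. Bcas1 was high in SSC noJUN replicate 3, at 11.79 against 10.54 to 10.71. Gpm6a was high in CSP JUN replicate 2, at 5.69 against 4.75 to 4.79, and Mmrn2 was low in CSP noJUN replicate 1, at 9.08 against 10.01 to 10.09. For these 4 genes the SSC and CSP arrays did not overlap.

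SSC JUN replicate 1, the array of mouse 4, had the high mean for osteoblast and osteocyte genes (11.73 against 10.81 to 10.93), for immediate early genes outside AP-1 (12.46 against 11.29 to 11.46) and for heat shock genes (11.76 against 11.30 to 11.38). The mean of the IGF genes was low in SSC noJUN replicate 3, at 12.15 against 12.56 to 12.58. The mean of the sort surface markers was high in CSP JUN replicate 1, at 10.53 against 10.32 to 10.34.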

How the results depend on the processing

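The count of 54 genes became 8 with the mouse as a fixed replicate block, 29 with only the 3 mice that gave both populations and a replicate block (27 of the 54), and 54 with a random replicate block. It was 1 for the contrast without JUN and 8 for that with JUN, both from a fit of group means to all 12 arrays. Array weights gave 156 (54 of the 54), the 3′ minus 5′ signal as a covariate 2 and a term for dated titles 23. The count was 34 without mouse 3 and 7 without mouse 7. Leaving out 1 array in turn gave 17 to 62. The other settings run stayed within 1.5 times of 54. The interaction had 0 genes in every setting run; it was not run with the mouse as a fixed block. Of 1748 values of called genes under the alternatives, 1090 stayed past the threshold, 658 did not and 0 changed sign; why calls were lost was not tested, beyond the fewer arrays or degrees of freedom of some settings.

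Among other genes named, signs changed as follows. With a term for dated titles, SSC is read from SSC JUN replicate 1 alone. Tek then stood at -0.21, Enpep at -0.27, Itgav at -0.49, Matn1 at 2.00 and Jun at 0.25. With the poly-A controls as a covariate Tek stood at -0.0084, Enpep at -0.41, Itgav at -0.16, Thy1 at 0.067 and Matn1 at 0.54. With array weights Cd200 stood at -0.071, Thy1 at 0.16 and Col10a1 at -0.26. Thy1 was 0.086 with the mouse as a replicate block and 0.023 with the 3 mice and a block. Leaving out 1 array gave -0.45 to 0.13 for Thy1 and -0.031 to 0.87 for Cd200, with the sign changed for Thy1 without SSC noJUN replicate 3 or CSP JUN replicate 2 and for Cd200 without CSP JUN replicate 2. Cd200 was -0.013 without mouse 7, and Pdgfra was 0.056 with the probe set of highest variance. Of 1551 values of list medians 123 moved by more than the spread between arrays.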
